A study of Canis lupus familiaris with 10 samples.

Results

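The TNF superfamily is a family of trimeric ligands, mostly anchored in the cell membrane, and of the receptors that bind them. The 40 genes described here were taken by symbol from a table of 23266 dog genes: every symbol that starts with TNFSF or TNFRSF, and the members known by other names (TNF, LTA, LTB, LTBR, FAS, CD27, CD70, CD40, CD40LG, NGFR, EDA and EDAR). They comprised 17 ligands and 23 receptors. The death receptor genes TNFRSF10A to TNFRSF10D and EDA2R were not analysed here. The death ligand FASLG and the receptor RELT, whose symbols fall outside the naming rule, are given with the signaling genes.

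The samples were canine cutaneous histiocytomas (CCH), tumors of Langerhans cells in dog skin that regress spontaneously as lymphocytes infiltrate them. The 5 early tumors belonged to histologic group 1 and the 5 late tumors to group 3 of the Cockerell and Slauson scheme, and the labels describe the late tumors as lymphocyte-enriched. Each tumor was an archived, formalin-fixed, paraffin-embedded (FFPE) sample from a different pet dog, with no experimental treatment in either group. Stated ages ran from 0.5 to 5 years in the early group (given for 4 of the 5 dogs) and from 1.5 to 9 years in the late group. The comparison asks which genes differ between the growing and the regressing stage. Libraries were made with QuantSeq 3′, which sequences 1 fragment per transcript near the poly(A) tail, so that counts can be compared between genes without a length correction.

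Ligand binding draws receptor trimers together. Receptors with a cytoplasmic death domain, such as FAS and TNFRSF1A, can start apoptosis through FADD and caspase-8, whereas the others recruit TRAF adaptors and switch on NF-κB. In skin and lymphoid tissue the family is known for costimulation of T cells (OX40, 4-1BB, GITR, CD27), for B-cell survival (BAFF and APRIL), for lymphoid tissue organization (lymphotoxins) and for dendritic cell licensing through CD40.

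The libraries held 2973125 to 4439709 reads counted on genes, 3132916 to 4439709 in the early and 2973125 to 3230455 in the late group. These are fewer than the trimmed reads that the paper reports for CCH samples. A count of 0 allows up to 3 reads, which is 2.36 to 3.22 normalized counts depending on the library (counting error only). The 2 stages were extracted in different RNA batches, so batch and stage cannot be told apart. RNA quality, as the percentage of longer RNA fragments (DV200), was 64.5 to 71.2% in early and 71.2 to 75.8% in late samples. The summed normalized counts of 12 T-cell marker genes ran from 98.1 to 2942 in early and from 4189 to 7425 in late libraries. Those of 7 B-cell markers ran from 51.5 to 238 and from 417 to 2320, and those of 10 Langerhans and dendritic cell markers from 3239 to 4963 and from 2440 to 2999. The Langerhans cell gene CD207 was not analysed here. No listed marker was at 0 in every library. In bulk tumor RNA, fewer cells of a type and less RNA per cell cannot be told apart.

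The members took 0.128 to 0.191% of the reads counted on genes in early libraries and 0.233 to 0.253% in late libraries, with no overlap between the groups. Summed over the 17 ligands, normalized read counts ran from 963 to 2764 in early and from 3107 to 3770 in late CCH. The corresponding receptor sums were 2698 to 3998 and 3943 to 4159, and these overlapped. A single ligand, TNFSF10, supplied 42.7 to 66.6% of the ligand counts of a library. A gene was tested when it had a normalized count of at least 10 in at least 5 libraries, which 12397 genes did. Among the members, 27 passed (10 ligands and 17 receptors) and 13 did not (7 ligands and 6 receptors).

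Differences are given as log2FC, late minus early, from limma on the log2(normalized count + 1) scale. For low genes the size of the log2FC depends on the count added and on the method. That of LTA was 2.97 with 0.5 added, 2.67 with 1 and 1.95 with 4, and it was 1.76 in the quasi-likelihood test of edgeR. A gene was called when its p-value after Benjamini-Yekutieli (BY) adjustment over all 12397 genes (p_adj) was at most 0.05 and its log2FC was at least 1 in size. Of all tested genes 269 were called, or 2.17%, with 131 (1.06%) higher and 138 (1.11%) lower in late CCH. Of the 27 tested members 1 was called, TNFRSF4, and it was higher in late CCH. None was called lower, and none was lower at an unadjusted p of 0.05 either, a level that 15.3% of all tested genes reached downward. Upward, 11 members (40.7%) reached an unadjusted p of 0.05, against 15.6% of all tested genes. TNFRSF4, which the filter let in through its late libraries alone, is 1 of the 11.

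In 6 members (22.2%), every late value lay above every early value, against 5.91% of all tested genes, and in 0 members every late value lay below, against 6.05%. The 6 include TNFRSF4, which passed the filter through its 5 late libraries alone, so that its separation was fixed in advance. The median log2FC was 0.51 over the 27 members and near 0 over all tested genes (-0.004). A positive log2FC was found for 22 members (81.5%, against 49.8% of all tested genes) and a negative one for 5. With the less strict Benjamini-Hochberg adjustment 8 members passed upward (29.6%, against 5.53% of all tested genes). Among these were TNFRSF4, TNFRSF18, CD27 and TNFRSF25 of the receptors, and LTB, LTA, TNF and TNFSF8 of the ligands. On the recovered read counts, the quasi-likelihood test of edgeR called 0 members (0.653% of all tested genes upward). DESeq2 called 2, TNFRSF4 and TNFRSF18 (3.88% of all tested genes upward). The counts with Benjamini-Hochberg adjustment and with DESeq2 include TNFRSF4, whose separation was fixed in advance.

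**Figure D1:**
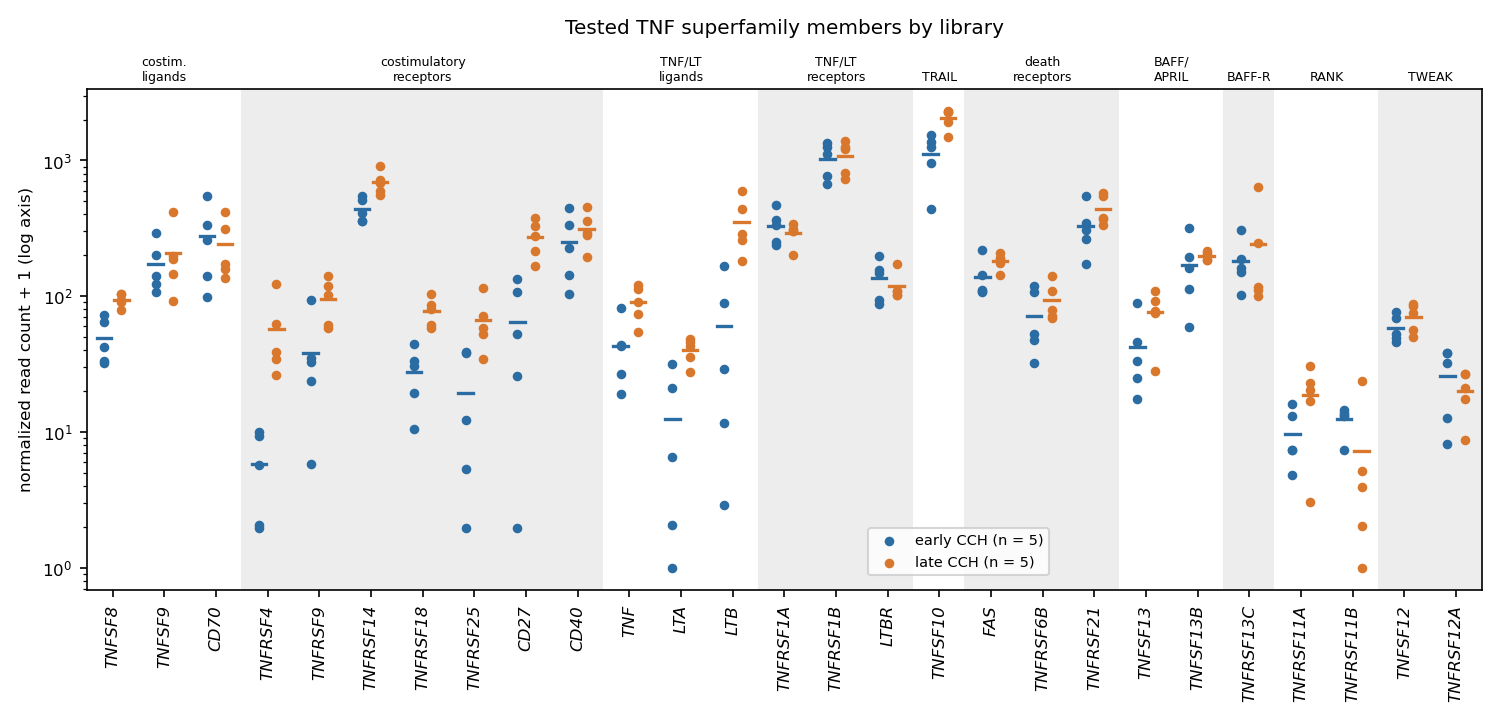
Normalized read count plus 1 on a log axis for each of the 27 tested members, grouped by role; blue points are the 5 early and orange points the 5 late CCH libraries, and short bars are group means. The late points stand clear of the early ones for TNFRSF4, TNFRSF18, LTB, TNFSF8, TNFRSF14 and CD27, while TNFRSF1A, TNFRSF1B and LTBR overlap.

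The T-cell costimulatory receptors held the largest share of the members with separate groups, counting TNFRSF4, whose separation the filter fixed. Of the 8 receptors in this group 7 were tested (TNFRSF8 was under the filter), all 7 had a positive log2FC, 6 reached an unadjusted p of 0.05, and 1 was called. Over all tested genes, 49.8% had a positive log2FC, 15.6% reached that p upward and 1.06% were called higher. The median log2FC of the 7 receptors was 1.74.

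TNFRSF4 encodes OX40, a receptor that appears on T cells after antigen recognition and prolongs their survival. It rose in late CCH. Its normalized counts were 0.952, 8.37, 9.05, 4.73 and 1.07 in early libraries 1 to 5 and 37.8, 60.9, 25.2, 123 and 33.6 in late libraries 1 to 5. The lowest late library was thus above the highest early one, and the late libraries differed among themselves more than the early ones did in absolute terms. The group means were 4.83 ± 3.86 and 56.0 ± 39.6 (SD, n = 5 each), 11.6-fold apart, resting on 27 early and 280 late reads. The log2FC was 3.38 ± 0.61 (SE, 95% confidence interval 2.06 to 4.70, limma p_adj = 0.0479). No early library reached a count of 10, so TNFRSF4 entered the test through the 5 late libraries alone and had to differ. The adjusted p lay close to the threshold, and in the edgeR test it was 0.0589. When each library was left out in turn with the tested genes kept, the log2FC stayed between 3.04 and 3.66, and the call was made in 2 of 10 fits, without early library 2 and without early library 3. It was lost without early libraries 1, 4 or 5 and without any of the 5 late libraries, with limma p_adj up to 0.171.

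TNFRSF18 encodes GITR, a costimulatory receptor that is abundant on regulatory T cells. Its normalized counts were 9.52, 29.8, 43.4, 32.3 and 18.3 in early and 79.5, 85.6, 60.0, 103 and 57.7 in late libraries. The groups did not overlap, with means of 26.7 ± 13.1 and 77.2 ± 18.9 (SD, n = 5 each). The log2FC of 1.63 ± 0.37 (SE) did not pass (limma p_adj = 0.135).

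CD27, a receptor of naive and memory T cells and of memory B cells, had normalized counts of 0.952, 52.1, 133, 107 and 24.7 in early and 216, 278, 167, 326 and 376 in late libraries. Early library 1, with 1 read, stood far below the other early libraries. The log2FC was 3.00 ± 0.91 (SE, limma p_adj = 0.423). In the annotation of UU_Cfam_GSD_1.0, another build than that of the counts, CD27 overlaps its neighbor TAPBPL. The libraries were strand-specific, but the strand setting of the read counting is not given in the sources used here, so the value of CD27 is uncertain to that extent. TAPBPL itself had a log2FC of 1.00 ± 0.23.

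TNFRSF14, the herpesvirus entry mediator HVEM, was the most abundant costimulatory receptor. Its normalized counts were 356, 545, 412, 509 and 360 in early and 722, 558, 594, 914 and 676 in late libraries. The groups were separate by a small margin, and the log2FC was 0.67 ± 0.18 (limma p_adj = 0.250). TNFRSF25, the death receptor DR3 that costimulates T cells, had mean counts of 18.3 and 65.4 with overlapping groups (log2FC 2.44 ± 0.75, limma p_adj = 0.441). TNFRSF9, or 4-1BB, an activation marker of CD8 T cells, had means of 37.2 and 95.1 (log2FC 1.74 ± 0.59, limma p_adj = 0.633). CD40, carried by B cells and antigen-presenting cells, had overlapping groups with means of 250 ± 141 and 314 ± 96.3, and its log2FC of 0.47 ± 0.37 did not reach an unadjusted p of 0.05.

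**Figure D2:**
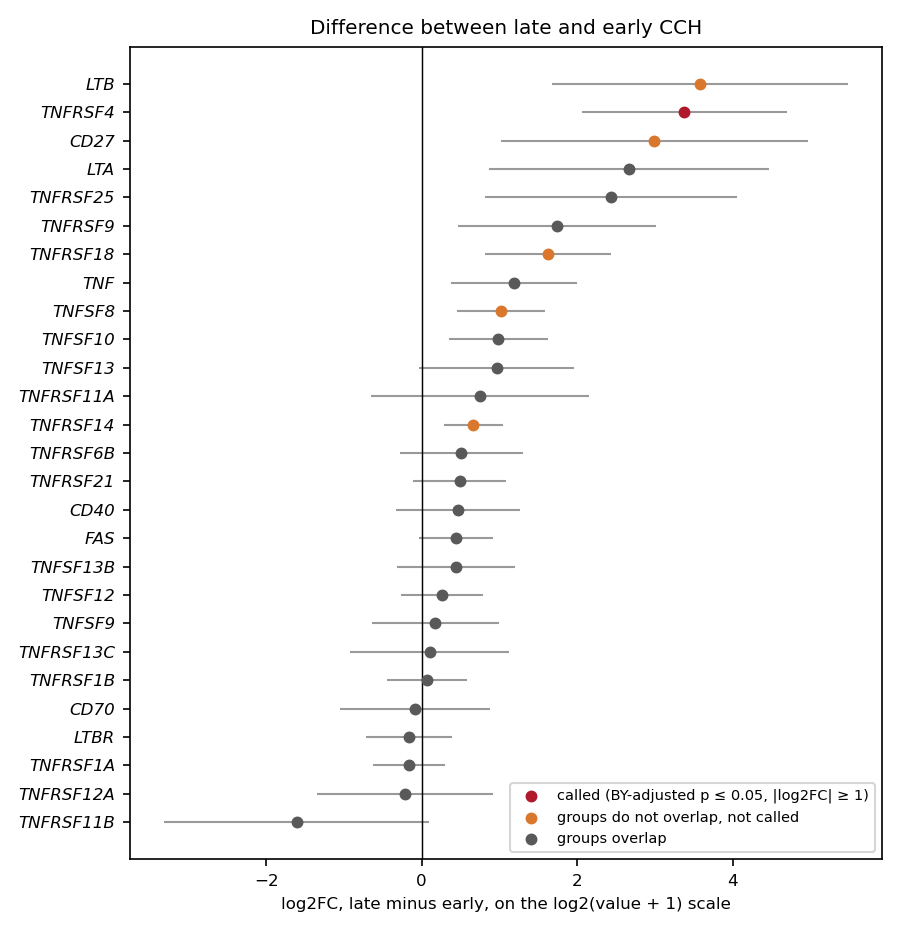
The log2FC (late minus early, log2(value + 1) scale) of the 27 tested members with 95% confidence intervals, sorted by size. TNFRSF4 (red, 3.38) was the called member, orange points mark the 5 others with separate groups, and 22 of the 27 points lie to the right of 0.

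Of the 8 ligands of these receptors, TNFSF8, TNFSF9 and CD70 passed the filter. TNFSF8, or CD30 ligand, had normalized counts of 40.9, 32.6, 63.3, 71.7 and 31.1 in early and 93.5, 103, 103, 90.0 and 77.6 in late libraries. Every late library lay above every early one, and the spread within the late group was small (means 47.9 ± 18.5 and 93.3 ± 10.4). The log2FC was 1.02 ± 0.26 (limma p_adj = 0.220).

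CD70, the ligand of CD27, is found on activated lymphocytes and mature dendritic cells. Its normalized counts were 98.1, 332, 545, 257 and 141 in early and 157, 314, 172, 136 and 418 in late libraries. The groups covered nearly the same range, and the log2FC of -0.08 ± 0.45 had a 95% confidence interval of -1.05 to 0.88; its sign turned when the libraries were scaled by their column totals. TNFSF9, the 4-1BB ligand, likewise overlapped, with means of 172 and 206 and a log2FC of 0.18 ± 0.38.

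The remaining ligands of this group were scarce. TNFSF4, the OX40 ligand, had normalized counts of 0.952, 8.37, 3.62, 0 and 2.15 in early and 17.9, 1.90, 24.2, 10.2 and 10.5 in late libraries. Late library 2 lay among the early values, the other 4 late libraries above them, and the gene had 16 early and 65 late reads in all. CD40LG, the T-cell ligand of CD40, had 22 and 44 reads, TNFSF14 (LIGHT) 4 and 25, TNFSF15 (TL1A) 22 and 17, and TNFSF18 (GITR ligand) 59 and 57. None of these 5 ligands was tested.

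The 3 ligands TNF, LTA and LTB lie side by side in the dog annotation, as in other mammals, and bind an overlapping set of receptors. All 3 had a positive log2FC and reached an unadjusted p of 0.05, and none was called (0 of 3 by edgeR as well). Over all tested genes, 49.8% had a positive log2FC and 15.6% reached that p upward. LTB anchors lymphotoxin at the cell surface and drives the formation of lymphoid tissue. Its normalized counts were 1.90, 27.9, 88.7, 165 and 10.7 in early and 287, 258, 599, 439 and 180 in late libraries. The groups were separate, with early library 4 close to late library 5. The means were 58.9 ± 68.5 and 353 ± 166, and the log2FC was 3.58 ± 0.88 (limma p_adj = 0.180).

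LTA, the soluble lymphotoxin, had mean counts of 11.5 and 39.1. Early library 4, at 30.7, exceeded late library 1, at 26.8, and the log2FC was 2.67 ± 0.83 (limma p_adj = 0.470). TNF, the inflammatory cytokine of macrophages and T cells, had means of 41.9 ± 24.3 and 89.1 ± 27.2 with overlapping groups (log2FC 1.19 ± 0.38, limma p_adj = 0.495).

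The log2FC of the receptors of these ligands lay near 0. TNFRSF1B, or TNFR2, was the second most abundant member, with 1344, 1265, 767, 673 and 1106 normalized counts in early and 1257, 1385, 806, 731 and 1207 in late libraries. Both groups spanned about the same range, and the interval of the log2FC (0.07 ± 0.24) ran from -0.45 to 0.59. In the annotation of UU_Cfam_GSD_1.0, TNFRSF1B overlaps LOC119876089, a gene without a value of its own among the counts. Whether this overlap bears on the value of TNFRSF1B was not tested. TNFRSF1A, or TNFR1, had counts of 331, 471, 237, 250 and 363 in early and 300, 339, 314, 300 and 199 in late libraries, with a log2FC of -0.16 ± 0.21 (interval -0.62 to 0.30). LTBR, the lymphotoxin β receptor of stromal and myeloid cells, had counts of 154, 197, 92.3, 86.6 and 147 in early and 100, 171, 108, 101 and 108 in late libraries. Its log2FC was -0.16 ± 0.25 (interval -0.71 to 0.39). For TNFRSF1A and LTBR the intervals exclude a 2-fold difference in either direction; that of TNFRSF1B does so for the counts as deposited.

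TNFSF10 encodes TRAIL, a death ligand induced by interferons. It was the most abundant member, with normalized counts of 440, 955, 1551, 1251 and 1361 in early and 1934, 2295, 2262, 2264 and 1496 in late libraries. Late library 5 lay just under early library 3, and the other 4 late libraries lay above every early one. The means were 1112 ± 433 and 2050 ± 343, and the log2FC was 0.99 ± 0.29 (limma p_adj = 0.399). Of the receptors in the death group, FAS, TNFRSF21 (DR6) and TNFRSF6B were tested. TNFRSF6B encodes the soluble decoy DcR3 and overlaps ARFRP1 in UU_Cfam_GSD_1.0, which makes its value uncertain. All 3 had a positive log2FC, none reached an unadjusted p of 0.05, and 0 were called by limma or edgeR. FAS had means of 137 ± 47.9 and 180 ± 24.3 and a log2FC of 0.44 ± 0.22 (interval -0.03 to 0.91). TNFRSF21, a receptor of neurons and lymphocytes, had normalized counts of 263, 550, 172, 309 and 344 in early and 571, 335, 370, 546 and 374 in late libraries. The groups overlapped, with means of 327 ± 140 and 439 ± 110 and a log2FC of 0.49 ± 0.27 (interval -0.10 to 1.08).

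The B-cell survival branch was uneven. TNFSF13B, or BAFF, had means of 168 and 198 (log2FC 0.44 ± 0.35), and TNFSF13, or APRIL, 41.1 and 75.9 (log2FC 0.97 ± 0.46). Both overlapped between the groups. TNFRSF13C, the BAFF receptor of B cells, had counts of 307, 160, 149, 188 and 101 in early and 99.4, 110, 641, 244 and 116 in late libraries. Late library 3 stood apart from the rest, and it also had the highest B-cell marker sum of all libraries, 2320. The log2FC was 0.10 ± 0.47. TNFRSF13B (TACI), carried by B cells and plasma cells, was under the filter with 2 early and 37 late reads; it was listed at 0 in 4 early libraries and at 3.15 to 14.3 in all 5 late ones. Its position in UU_Cfam_GSD_1.0 overlaps USP22. TNFRSF17 (BCMA), a receptor of plasma cells, had 17 and 34 reads, and most of the late ones were in late library 3 (normalized count 26.1).

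The RANK axis governs osteoclasts and the dialog of T cells with dendritic cells. Its ligand TNFSF11 (RANKL), which keratinocytes and T cells can make, had normalized counts of 23.8, 17.7, 1.81, 2.36 and 29.0 in early and 5.97, 7.61, 0, 0 and 0 in late libraries, with 76 and 14 reads. Early libraries 1, 2 and 5 lay above every late library and early libraries 3 and 4 among them, and the gene was under the filter. TNFRSF11B, the soluble decoy osteoprotegerin, had the lowest log2FC of the members. Its counts were 12.4, 12.1, 13.6, 6.30 and 12.9 in early and 22.9, 0, 2.91, 1.02 and 4.20 in late libraries. Late library 1 was the highest of all 10, and the other 4 late libraries lay below every early one. The log2FC of -1.61 ± 0.79 did not reach an unadjusted p of 0.05 (interval -3.32 to 0.10). TNFRSF11A, the receptor RANK, had means of 8.71 and 17.8 (log2FC 0.75 ± 0.65).

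TNFSF12 (TWEAK), a ligand of tissue repair, had means of 57.5 and 69.5 (log2FC 0.26 ± 0.24). Its receptor TNFRSF12A (Fn14) had counts of 37.1, 37.2, 11.8, 7.09 and 31.1 in early and 25.9, 25.7, 7.75, 16.4 and 19.9 in late libraries. The groups overlapped, and the interval of its log2FC (-0.22 ± 0.52) was wide, from -1.35 to 0.91. The ectodermal and neurotrophin members were nearly silent. EDA, which directs hair follicle and gland development, had 22 early and 11 late reads, its receptor EDAR 10 and 1, TNFRSF19 (TROY) 42 and 25, and the nerve growth factor receptor NGFR 9 and 35. TNFRSF8 (CD30) had 9 and 45 reads, most of the late ones in libraries 2 and 5.

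**Figure D3:**
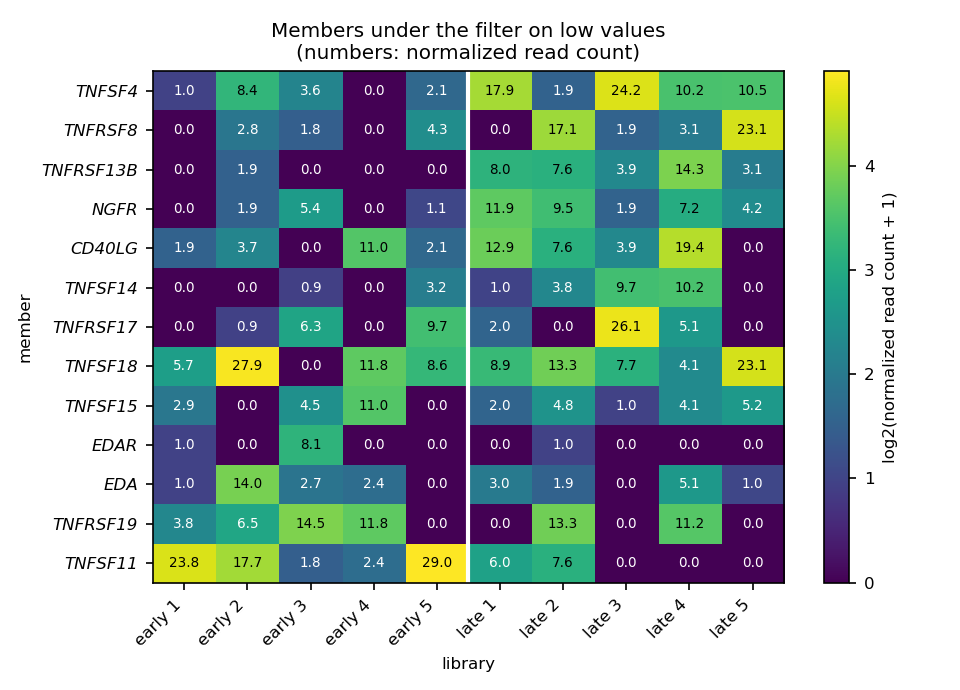
Normalized read counts of the 13 members under the filter on low values (rows) in each library (columns); color is log2(normalized count + 1). TNFSF4 and TNFRSF13B are brighter on the late side, TNFSF11 is brightest in early libraries 1, 2 and 5, and the white line parts the stages.

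Several members are known genes of lymphocytes or macrophages, and the levels of cell type markers differed between the stages as well. The sums of 7 markers of cytotoxic lymphocytes ran from 163 to 2856 in early and from 3452 to 8786 in late libraries. Of these 7 markers 2 were called higher (1.06% of all tested genes). Of the 9 tested Langerhans and dendritic cell markers 2 were called, both lower (1.11% of all tested genes). In all, 8 of the 9 had a negative log2FC, and 1, IRF8, had a positive one (49.8% of all tested genes were positive). IRF8 had means of 198 and 514 (log2FC 1.27 ± 0.33, limma p_adj = 0.217). CD86 was the largest part of the sum of these markers, with means of 2171 and 1237 where the sums averaged 4235 and 2669. The sums of 9 macrophage markers ran from 2587 to 11070 and from 5878 to 11364. Of the 8 tested, 0 were called by limma or edgeR and 1 by DESeq2 (3.88% of all tested genes upward). An unadjusted p of 0.05 was reached by 4 upward and 1 downward (15.6% and 15.3% of all tested genes). The sums of 9 keratinocyte markers ran from 955 to 16584 and from 697 to 8661. Both the macrophage and the keratinocyte sums overlapped. All 12 T-cell markers had a positive log2FC (49.8% of all tested genes), and 1 was called higher (1.06%). In 9 of them every late value lay above every early value (5.91% of all tested genes). The T-cell sums were 98.1, 1015, 2942, 2172 and 341 in early libraries 1 to 5. TNFRSF4, CD27 and LTB were each lowest in early libraries 1 and 5, the libraries with the lowest T-cell sums. Per 1000 T-cell marker counts, TNFRSF4 ran from 2.18 to 9.71 in early and from 5.11 to 16.5 in late libraries, so that the groups overlapped. The same ratio ran from 9.71 to 72.3 and from 32.2 to 57.2 for CD27, and from 19.4 to 76.1 and from 27.5 to 143 for LTB, again with overlap. For TNFRSF18 it was 14.8 to 97.1 in early and 8.79 to 17.4 in late libraries. These overlapped as well, but 4 late libraries lay below every early one. The early and late medians were 3.14 and 6.01 for TNFRSF4, 49.3 and 43.9 for CD27, and 30.1 and 52.3 for LTB. For TNFRSF18 they were 29.3 and 13.9. The early ratios rest on few reads in libraries 1 and 5. Per 1000 B-cell marker counts, TNFRSF4 ran from 12.5 to 47.8 in early and from 10.9 to 148 in late libraries. CD27 ran from 12.5 to 703 and from 71.8 to 787, and LTB from 25.0 to 1061 and from 258 to 661. All 3 overlapped. The part of the T-cell, B-cell, cytotoxic lymphocyte, macrophage, keratinocyte, and Langerhans and dendritic cell content in the differences of the members was not tested.

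**Figure D4:**
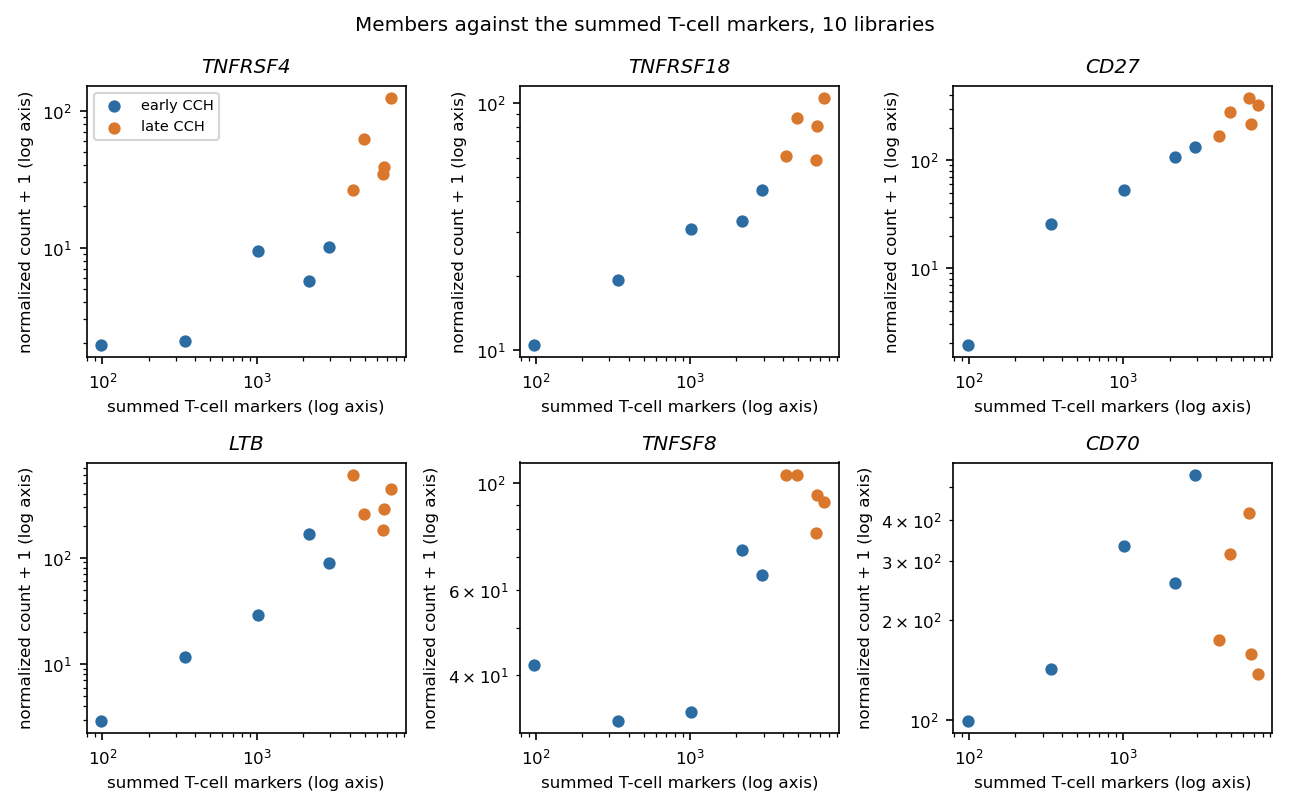
Normalized count plus 1 of 6 members against the summed counts of 12 T-cell markers, both on log axes, for the 5 early (blue) and 5 late (orange) libraries. Early libraries spread from 98.1 to 2942 on the horizontal axis and late ones from 4189 to 7425; CD70 covers about the same range of counts in both groups.

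Set against its partner, a ligand could be more or less abundant than its receptor in each stage. LTB lay above LTBR in 1 of 5 early and in 5 of 5 late libraries, with a ratio of means of 0.435 in early and 2.99 in late CCH. CD70 lay above CD27 in all 5 early libraries and in 3 of 5 late ones, and the ratio of means went from 4.32 to 0.879. In both pairs 1 partner had a log2FC near 0, LTBR (-0.16) or CD70 (-0.08). The interval of CD70 was wide, from -1.05 to 0.88. The other partner had a log2FC of 3.58 (LTB) or 3.00 (CD27), and without early library 1 these were 2.77 and 1.98. TNFSF9 exceeded TNFRSF9 in 5 early and 4 late libraries, and TNFSF8 exceeded TNFRSF8 in all 10. TNFSF4 exceeded its receptor TNFRSF4 in 1 early and 0 late libraries. TNFRSF1B was 24.6-fold more abundant than TNF in early CCH and 12.1-fold in late CCH. These ratios are descriptions and were not tested.

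**Figure D5:**
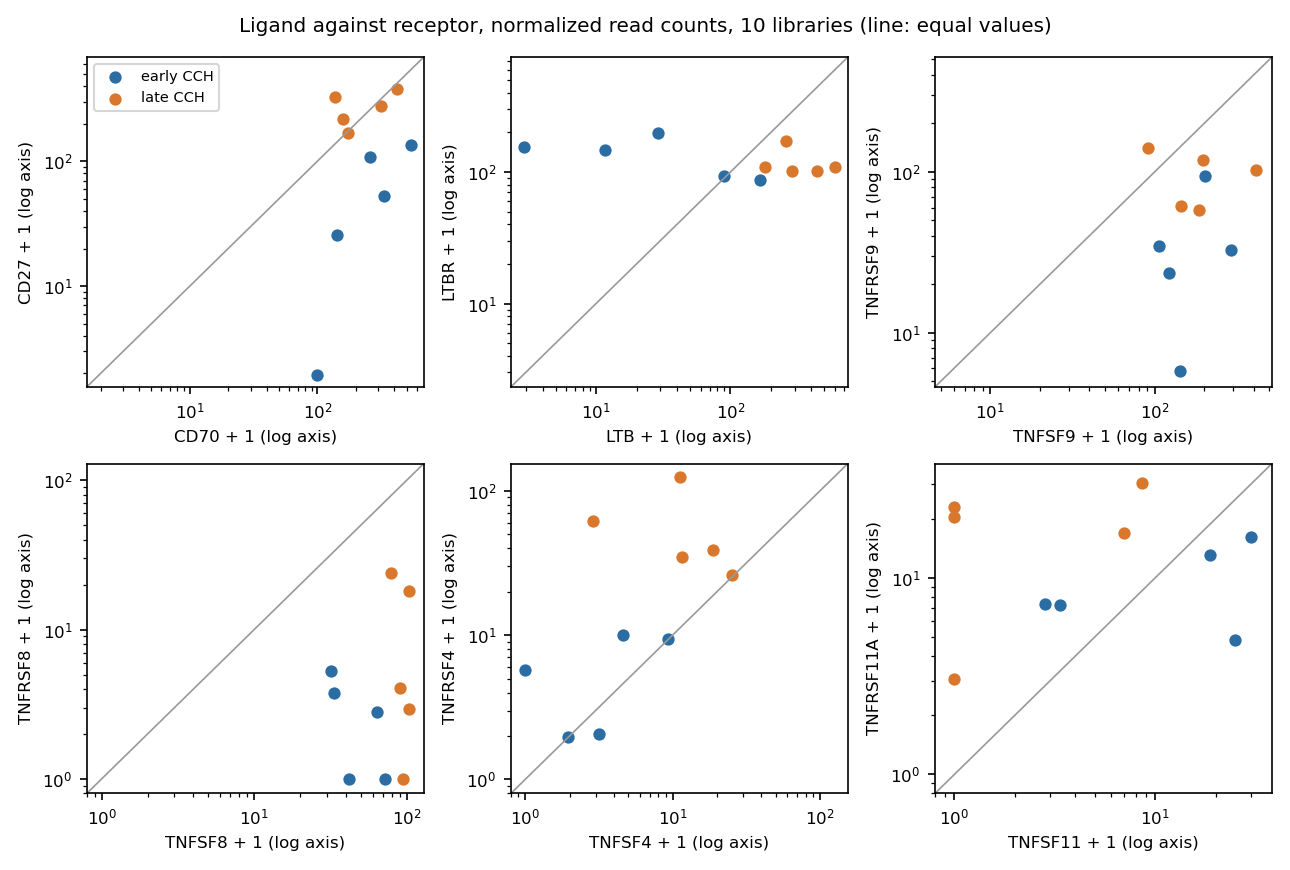
Normalized counts plus 1 of a ligand (horizontal) and its receptor (vertical), on log axes, in the 5 early (blue) and 5 late (orange) libraries; the line marks equal values. For LTB and LTBR 4 early points lie above the line and all 5 late ones below it, and for CD70 and CD27 all 5 early points lie below it.

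Some members are neighbors in the dog annotation. By the gene order of the RefSeq table for UU_Cfam_GSD_1.0, another build than that of the counts, 16 of the 40 members lay next to another member. TNFRSF4 and TNFRSF18 were adjacent. Both had separate groups, though the filter fixed the separation of TNFRSF4. Their next neighbor SDF4, a calcium-binding protein of the Golgi, had a log2FC of 0.03. LTBR and CD27 were adjacent too, with log2FC of -0.16 and 3.00, as were TNFSF15 (under the filter) and TNFSF8. CD70 lay between TNFSF14 and TNFSF9.

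A list of 40 signaling genes (among them TRAF adaptors, death domain proteins, NF-κB subunits and inhibitors, and sheddases) was examined as well. It also held the ligand FASLG and the receptor RELT, which are not downstream of the receptors. Of the 39 tested, 29 had a positive and 10 a negative log2FC (49.8% of all tested genes were positive), with a median of 0.47. None was called by limma or edgeR (2.17% of all tested genes were called by limma) and 5 were called by DESeq2 (3.88% of all tested genes upward). An unadjusted p of 0.05 was reached by 20 upward (51.3%, against 15.6% of all tested genes) and by 1 downward. The highest log2FC was that of FASLG, the Fas ligand of cytotoxic lymphocytes, with normalized counts of 0, 26.1, 57.0, 7.09 and 1.07 in early and 45.7, 167, 63.0, 95.1 and 71.3 in late libraries. Late library 1 lay under early library 3 (log2FC 3.40 ± 0.95, limma p_adj = 0.304). NFKBIA, which encodes the NF-κB inhibitor IκBα and is itself a target of NF-κB, had means of 1349 ± 399 and 2854 ± 404 (log2FC 1.13 ± 0.22, limma p_adj = 0.0620). RELT, a receptor of the family under another symbol (TNFRSF19L), had a log2FC of 2.42 ± 0.49 (limma p_adj = 0.0756). The lowest was FURIN, a protease that cleaves several family ligands, with means of 748 and 423 (log2FC -0.82 ± 0.23, limma p_adj = 0.322).

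A second list held 20 genes known to respond to TNF or lymphotoxin, among them adhesion molecules and lymphoid chemokines. Of the 18 tested, 16 had a positive and 2 a negative log2FC (49.8% of all tested genes were positive), with a median of 1.10. None was called by limma or edgeR (2.17% of all tested genes were called by limma), and 2 were called by DESeq2 (3.88% of all tested genes upward). An unadjusted p of 0.05 was reached by 9 of the 18, all upward, against 15.6% of all tested genes. In 2 of the 18 (11.1%, against 5.91% of all tested genes), the chemokines CCL5 and CCL21, every late value lay above every early value. CCL5, made by activated T cells and also counted among genes of cytotoxic lymphocytes, had the highest log2FC (3.48 ± 0.90, limma p_adj = 0.223), with means of 945 and 4919. The lowest was PTX3, a soluble pattern recognition molecule (log2FC -0.44 ± 0.81). The summed T-cell markers of the same libraries were 98.1 to 2942 in early and 4189 to 7425 in late CCH, and their part in the differences of either list was not tested.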

How the data were processed

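A total of 10 FFPE tumors, 5 early and 5 late CCH, were profiled by QuantSeq 3′. Per the methods and labels, the authors trimmed reads with Cutadapt, aligned them to CanFam3.1 with STAR and counted them per gene with featureCounts in 2 rounds, the second with genes extended at the 3′ end. Reads with several alignments were shared. The deposited signal is the normalized read count, a count divided by a size factor per library. Of 166096 values above 0, 166096 (100%) were whole multiples of 1 read's worth within a tolerance of 1e-06, and these reads served the count tests. Of 21 value columns, 10 were used, and 11 matched no sample and were not used. Column names hold the stage and a sample number, and that number was not used to link columns to single dogs. Libraries were therefore numbered within a stage in column order, and ages, DV200 and batches were not tied to single libraries.

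Values were tested as log2(value + 1) with limma 3.58.1 (trended variance, R 4.3.3) on genes with at least 10 in at least 5 libraries, with BY adjustment over all tested genes. Alternatives were pseudocounts, filters, scalings, BH adjustment, robust variance, library weights, no fold threshold, edgeR 4.0.16 (quasi-likelihood), DESeq2 1.42.0 (Wald) and leaving out each library. Keeping the tested genes while leaving out a library was added after seeing the data. The scripts were tested on simulated data. All 40 members were matched to RefSeq symbols. No sequence is given.

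Members and lists were chosen with earlier results of these data known. All members are accounted for. Values of every library are given for called members, for tested members with separate groups and a log2FC of at least 1, for the 3 lowest log2FC, for the 5 highest means and for partners of called members, and for others chosen after their values were seen. From the other lists, called genes and the highest and lowest log2FC are named. NFKBIA, RELT, CCL21, TAPBPL, SDF4, IRF8 and CD86 were also chosen after their values were seen.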

Additional observations from a re-analysis of the deposited data

Results flagged for a closer look

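Single libraries far from the rest of their group were found in 5 of 54 groups of 5 libraries (27 tested members in 2 stages), where chance gives about 2.7; a library counted as far when its gap to the nearest other, divided by the range of the group, exceeded 0.71. TNFRSF13C in late library 3 had 641 normalized counts against 244 in the next library (gap 0.732), and the B-cell marker sum of that library was 2320. TNFRSF11B in late library 1 had 22.9 against 4.20 (gap 0.816), and in early library 4 it had 6.30 against 12.1 (gap 0.797). LTBR in late library 2 had 171 against 108 (gap 0.886). TNFRSF1A in late library 5 had 199 against 300 (gap 0.72).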

How the results depend on the processing

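No paired analysis was possible because no replicate number stands in the column names and each tumor came from a different dog. The count of members called was 1. It was 0 with a pseudocount of 0.5, without the filter, with a filter on a mean of 50 (which TNFRSF4 did not pass) and with edgeR. It was 2 with DESeq2, 8 with BH adjustment, and 0 to 1 when a library was left out. When a late library was left out, TNFRSF4 did not pass the filter, so it could not be called there. The adjusted p of TNFRSF4 with all 10 libraries ran from 1e-05 (DESeq2) to 0.0682 (limma without the filter). For the signaling genes (0 called) it was 1 with column totals, 3 with library weights, 5 with DESeq2, 8 with BH adjustment and 0 to 1 with a library left out. For the responsive genes (0 called) it was 1 with weights, 2 with DESeq2, 6 with BH adjustment and 0 to 2 with a library left out. The log2FC of CD70 turned to 0.00776 with column totals and 0.0346 with weights, and ran from -0.39 to 0.23 with a library left out. With a library left out, TNFRSF12A ran from -0.57 to 0.0568, TNFRSF13C from -0.35 to 0.32, TNFRSF1B from -0.0706 to 0.20 and TNFSF9 from -0.12 to 0.43. The other 22 members kept their direction under every alternative run. The causes were not tested. Column totals moved the median of all genes by 0.089 (log2), and 23 members then had a positive log2FC. At 2973125 to 4439709 reads counted on genes per library, the 13 scarce members could not be compared closely.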
